A study of Drosophila melanogaster with 2 samples.

Results

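The genes described are the microRNA hairpin genes of Drosophila melanogaster, set against chromatin bound by the transcription factor Sequoia. They were chosen by name from the Ensembl BDGP6.54 annotation, as every gene whose symbol begins with mir-, which takes in let-7 (mir-let7 there) and bantam (mir-ban there). This gave 262 of 18358 annotated genes, and the 260 that lay on the chromosome arms were used. The other 2 lay on a ribosomal DNA scaffold and were left out. Hairpin genes were 50 to 174 bp long, with a median of 92 bp. Hairpins under 10 kb apart on 1 strand were joined, which gave 203 loci, and 22 of these loci held 79 of the hairpins. The ChIP-seq used whole embryos aged 0 to 24 h that carried a transgene for Sequoia, the zinc finger protein encoded by seq, fused to eGFP. An anti-GFP antibody was used for precipitation. All samples formed 1 group of 2 biological replicates and no other genotype, treatment or stage. A whole embryo pools all tissues and stages of that span, so no peak can be placed in a cell type. The conservative set, made by the authors from both replicates, held 4099 peaks on the arms, and a peak is placed here by its summit. Its strength is the authors' signal, used here to rank the peaks of each list. The read depth behind the values is unknown.

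A microRNA gene is transcribed into a long primary RNA, from its own promoter or as part of a host gene. Drosha and Pasha cut the hairpin from that RNA, Dicer-1 cuts the hairpin to a short duplex, and Argonaute 1 carries one strand to target messages. Targets are recognised mainly by the seed near the 5′ end of the mature strand, so genes that share a seed can act on the same targets. A hairpin can lie far from the promoter that makes its RNA, and a peak beside a hairpin is therefore not the same as a peak at its promoter. Sequoia itself is known from work on how axons and dendrites grow and on cell fates in sense organs.

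Mature products of hairpins described below are shown first, chosen for their seed families and their strong or well-known loci, because the seed defines the family of each gene. They were read from the RefSeq Release 6 genome at RefSeq coordinates, run from 5′ to 3′, and have the seed, bases 2 to 8, in capitals. The products of mir-279 and mir-996, which lie in 1 transcript, share a seed, as do those of mir-92a and mir-92b and those of mir-13a, mir-13b-1 and mir-2c.
mir-279: uGACUAGAuccacacucauuaa
mir-996: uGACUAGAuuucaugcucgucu
mir-1000: aUAUUGUCcugucacagcagu
mir-92a: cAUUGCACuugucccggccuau
mir-92b: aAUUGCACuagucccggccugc
mir-10: aCCCUGUAgauccgaauuuguu
mir-13a: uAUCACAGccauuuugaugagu
mir-13b-1: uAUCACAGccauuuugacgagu
mir-2c: uAUCACAGccagcuuugaugggc
mir-ban: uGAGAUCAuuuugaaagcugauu

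The next 4 sequences are the summits of strong peaks with 50 bp on either side, near hairpins, on the strand of the hairpin. They are shown because these summits lie at transcription start sites (TSSs) beside a hairpin. Capitals mark matches on either strand to searched words (here GAGAGA, which the Trithorax-like protein binds, or the core promoter word TATAAA), and a sequence with no capitals held none of the 5 words searched. The window near mir-279 is chr3R:29214388-29214488 (plus strand), that near mir-1000 is chr3R:25589281-25589381 (minus strand), that near mir-10 is chr3R:6810780-6810880 (minus strand) and that near mir-92a is chr3R:25647021-25647121 (plus strand), all on Release 6 (dm6).
mir-279: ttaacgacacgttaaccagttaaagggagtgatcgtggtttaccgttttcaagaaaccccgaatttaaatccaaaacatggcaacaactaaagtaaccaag
mir-1000: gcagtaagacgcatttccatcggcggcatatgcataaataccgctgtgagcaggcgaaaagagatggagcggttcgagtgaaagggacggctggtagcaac
mir-10: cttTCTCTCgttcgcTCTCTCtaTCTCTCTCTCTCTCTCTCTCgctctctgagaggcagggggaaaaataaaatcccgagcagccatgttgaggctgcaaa
mir-92a: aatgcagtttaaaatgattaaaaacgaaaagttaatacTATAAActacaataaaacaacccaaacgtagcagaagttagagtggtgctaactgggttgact
The window near mir-10 held a run of alternating C and T, and had 10 matches to the complement of GAGAGA, most of them overlapping one another in that run. The window near mir-92a held 1 match to TATAAA, and those near mir-279 and mir-1000 held no match.

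Sequoia summits lay within 2 kb of 34 of the 260 microRNA hairpin genes (13.1%, exact Clopper-Pearson 95% interval 9.23 to 17.8), and at 29 of the 203 loci (14.3%, 9.78 to 19.9). The share of all annotated genes with a summit within 2 kb was 25.3%, that of protein-coding genes 27.8%, that of snoRNA genes 31.6%, that of other noncoding RNA genes 18.5% and that of tRNA genes 12.8%. Genes of these classes differ in length from hairpins, and the part of length in the shares was not tested. Measured from 5′ ends, the share was again 34 of 260 for microRNA genes and 18.7% for all genes. Of all bases on the arms, 9.96% lay within 2 kb of a summit, which is inside the interval of the hairpins' share. Intervals cover counting error only.

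No summit lay inside a hairpin, but hairpins are short, with a median of 92 bp. All genes differ from them in length, and the share of bases at the distances below was not computed. Whether the counts are low for hairpins of this size was therefore not tested. Within 500 bp of the hairpin, a summit was found for 8 of the 260 genes (3.08%, 1.34 to 5.97), against 17.1% of all genes. Within 1000 bp there were 17 of the 260, against 19.96% of all genes, and within 5000 bp 68 (26.2%), against 37.3% of all genes. The nearest summit of the 34 genes was at a median distance of 1001.5 bp, and the smallest distance was 165 bp, at mir-9378. It lay on the 5′ side of 23 hairpins and on the 3′ side of 11. In the pooled set, which is longer, 44 of 260 hairpins had a summit within 2 kb (16.9%), against 30.3% of all genes.

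**Figure D1:**
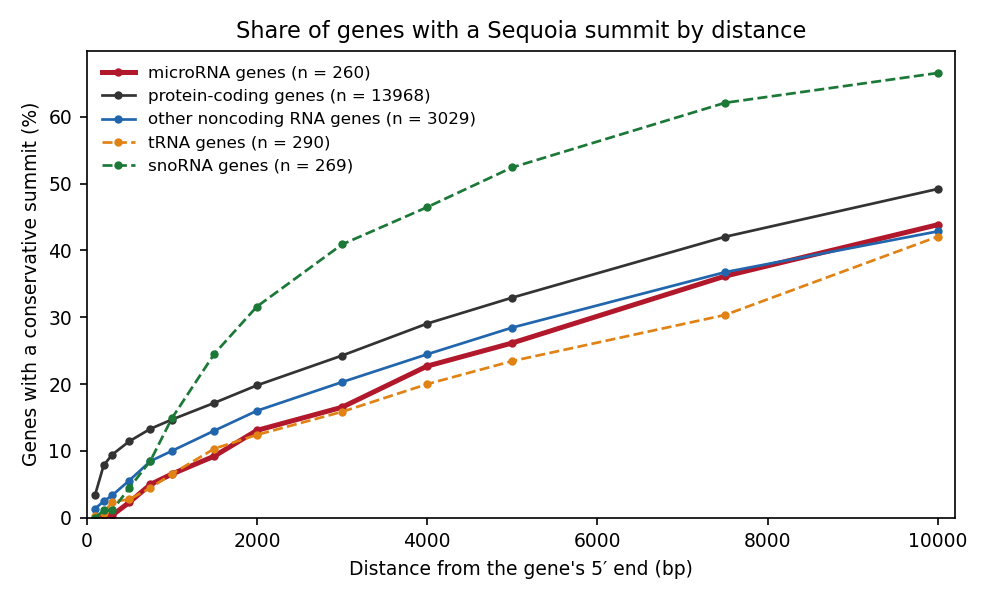
Share of genes (%, vertical axis) with a conservative Sequoia summit within a given distance of the gene's 5′ end (bp, horizontal axis), for microRNA genes and 4 other gene classes with the number of genes in each. At 500 bp the share was 2.31% of microRNA genes and 11.4% of protein-coding genes, and at 10000 bp it was 43.8% and 49.2%.

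Beyond 1000 bp the microRNA curve ran close to that of other noncoding RNA genes and of tRNA genes. At 2000 bp the shares were 13.1% of microRNA genes, 16.0% of other noncoding RNA genes and 12.4% of tRNA genes. The median gap from a hairpin to the nearest summit was 12760 bp.

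The 34 genes shared 37 distinct peaks, which made 44 pairs of a hairpin and a peak. Their median signal was 119.8 (quartiles 90.3 and 159.7), against 117.1 (88.4 and 177.7) for all conservative peaks, so peaks near hairpins were of ordinary strength. Of the 37, 5 were among the strongest 409 of the set. A TSS lay within 500 bp of 18 of the 37 summits (48.6%), against 44.5% of all summits. In 4 loci a summit was near more than 1 hairpin.

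**Figure D2:**
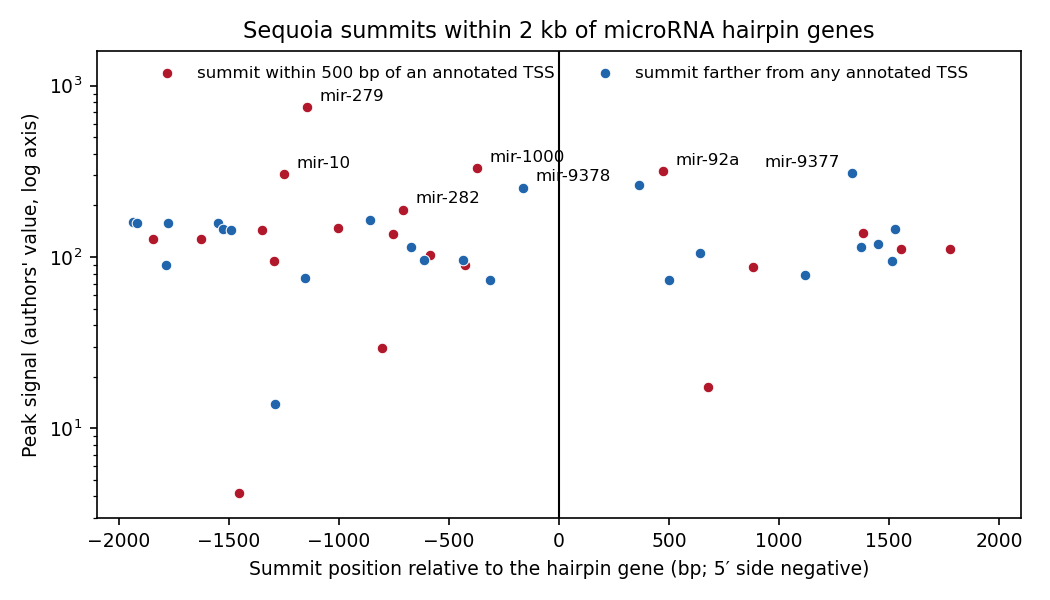
Signal of each conservative peak (authors' value, log axis) against the distance of its summit from the hairpin gene (bp, 5′ side negative), for the 44 pairs of a hairpin and a peak, with red points for summits within 500 bp of an annotated TSS and blue points for the others. Peaks on the 5′ side made 29 pairs and those on the 3′ side 15, and the peak near mir-279 stands above all others at 747.

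The strongest peak near a hairpin was upstream of mir-279, a microRNA that limits the formation of CO2-sensing neurons. Its signal was 747 in the conservative set (rank 45), 409 in replicate 1 and 347 in replicate 2. The peak (chr3R:29214297-29214588) had its summit 1147 bp upstream of the hairpin and 124 bp upstream of the TSS of lncRNA:CR31044, the noncoding host transcript. The same transcript holds mir-996, whose hairpin lay 2746 bp from this summit and so beyond the 2 kb window. This peak was therefore at the start of the RNA that carries both hairpins, and it was strong in both replicates.

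Near mir-1000, a neuronal microRNA known to act on the vesicular glutamate transporter message, the peak had a signal of 329 (rank 309), with 236 in replicate 1 and 94.0 in replicate 2. Its summit (chr3R:25589226-25589441) was 373 bp upstream of the hairpin and 152 bp upstream of the TSS of the host lncRNA:CR45910, which lies opposite msi, the gene of the RNA-binding protein Musashi. At mir-92a, which keeps neuroblasts from differentiating, the signal was 317 (rank 334), with 137 in replicate 1 and 179 in replicate 2. This summit lay 471 bp to the 3′ side of the hairpin and 175 bp upstream of a TSS of the host gene jigr1, itself a known target of mir-92a. The peak near mir-1000 was the stronger one in replicate 1 and that at mir-92a in replicate 2, so their order depends on the replicate.

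The hairpin of mir-10 lies in the Antennapedia complex of Hox genes. Its peak had a signal of 304 (rank 362), with 193 in replicate 1 and 110 in replicate 2, and the summit lay 1248 bp upstream of the hairpin. It was 11 bp inside the start of lncRNA:CR45915, which runs the other way. The noncoding host of mir-10, lncRNA:CR42651, had a separate summit 80 bp upstream of its own TSS, of signal 147, with 83.4 in replicate 1 and 59.6 in replicate 2. Here the peak nearest the hairpin was at the start of a noncoding RNA antisense to the host and inside it, and a weaker one was at the start of the host.

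Strong peaks away from any TSS lay inside the genes that hold mir-9377 and mir-9378. Tis11 encodes a protein that binds AU-rich messages. Within this gene, 1 peak near mir-9377 had a signal of 307, with 124 in replicate 1 and 186 in replicate 2. A second peak near mir-9377 had a signal of 265, with 109 in replicate 1 and 148 in replicate 2. The summits lay 1331 and 365 bp to the 3′ side of the hairpin. Near mir-9378, inside CG17124, a peak had a signal of 254, with 168 in replicate 1 and 92.8 in replicate 2. Its summit was 165 bp upstream of the hairpin. The nearest TSSs were 5099 bp and more from the Tis11 summits and 4222 bp from that in CG17124. These summits were thus inside the host genes and away from TSSs, and both replicates held them in their own sets. Their position against exons was not checked.

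**Figure D3:**
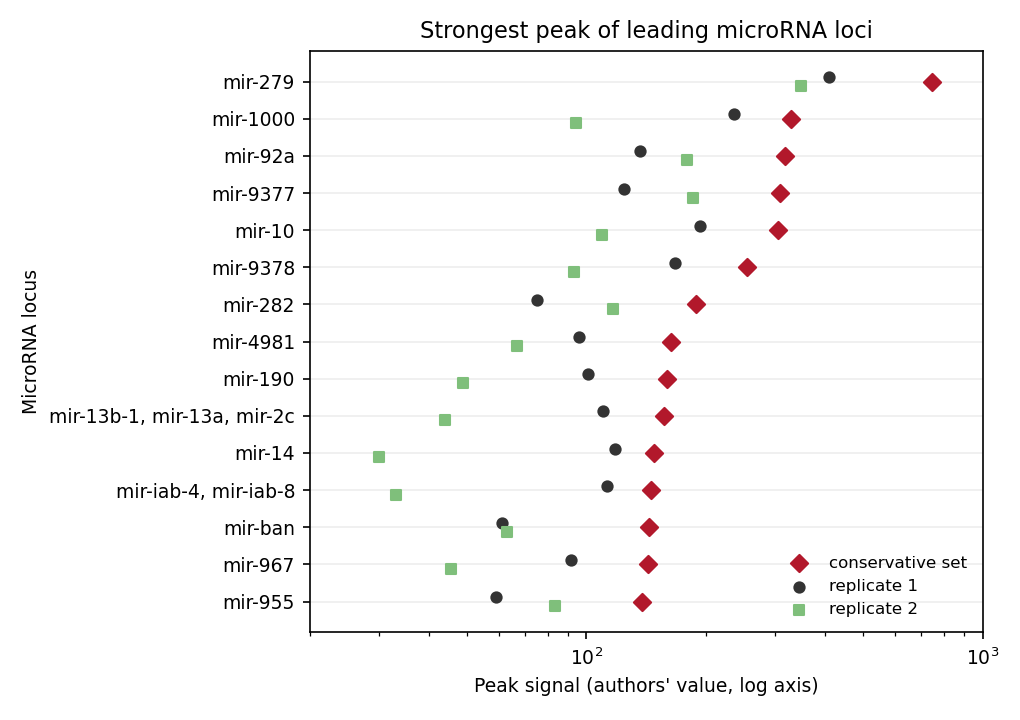
Signal (authors' value, log axis) of the strongest peak at leading microRNA loci, one row for each peak, in the conservative set (diamonds), in replicate 1 (circles) and in replicate 2 (squares). The peak near mir-279 leads in all 3 lists, and below it the order differs between replicates. The peak near mir-14, for example, had 118 in replicate 1 and 29.9 in replicate 2.

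Among the next loci, mir-282 had a signal of 189, with 74.9 in replicate 1 and 117 in replicate 2, at a summit with an offset of -280 bp from a TSS of its host lncRNA:CR43626. That of mir-4981 was 164, with 95.9 in replicate 1 and 66.8 in replicate 2. At mir-190, in an intron of rhea, the talin gene, it was 160, with 101.04 in replicate 1 and 48.9 in replicate 2. None of these 3 hairpins was in a group listed by function, and the replicates differed in which of the 3 was strongest.

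The clustered hairpins mir-13b-1, mir-13a and mir-2c belong to the K box family, whose seed AUCACAG was found in 14 microRNA genes and whose members are known to repress cell death genes. The 3 hairpins shared a peak of signal 157, with 110 in replicate 1 and 44.1 in replicate 2, at 1549 to 1919 bp on their 5′ side and 980 bp inside their host lncRNA:CR45911. That host also had a summit 37 bp inside its start, with a signal of 174. Of the 14 genes with this seed, a summit within 2 kb was found at these 3 and at mir-308 (signal 137, with 70.3 in replicate 1 and 68.9 in replicate 2). The hairpin of mir-308 lies in an intron of the ribosomal protein gene RpS23, and the summit lay 9 bp inside the start of RpS23. Another 4 of the 14, mir-2b-1, mir-2a-1, mir-2a-2 and mir-2b-2, lay farther away but in hosts with a promoter summit, described below. The mir-6 hairpins, mir-5, mir-11 and mir-13b-2 had neither.

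Among growth regulators, mir-14, which suppresses cell death and limits fat storage, had a signal of 148, with 118 in replicate 1 and 29.9 in replicate 2, at a summit 86 bp upstream of its host lncRNA:CR43651. Replicate 2's own set did not hold this peak. Bantam, which promotes growth and blocks cell death, had 2 separate peaks inside its host lncRNA:CR43334. That on the 5′ side, at -1492 bp, had a signal of 144, with 61.4 in replicate 1 and 63.0 in replicate 2. That 642 bp to the 3′ side had 105, with 61.3 in replicate 1 and 35.6 in replicate 2. At mir-8, which controls body growth, the signal was 94.1, with 47.7 in replicate 1 and 39.8 in replicate 2, and neither replicate's own set held the peak. Bantam was the one of these 3 with a peak in both replicates' own sets.

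The hairpins mir-iab-4 and mir-iab-8 lie at the same position of the bithorax complex on opposite strands and are known to repress Ubx and abd-A. They shared a peak 1528 bp away, of signal 145, with 113 in replicate 1 and 33.1 in replicate 2, and replicate 2's own set did not hold it. At mir-967, in an intron of bun, the signal was 143, with 91.7 in replicate 1 and 45.6 in replicate 2, and the summit lay 195 bp upstream of a bun TSS. At mir-955, which lies between genes, it was 138, with 58.9 in replicate 1 and 83.5 in replicate 2, and the summit lay 435 bp inside the start of CG14968. Replicate 1 was the higher at the first 2 of these peaks and replicate 2 at mir-955.

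The other 13 loci had signals from 75.5 to 137 at their strongest peak, led by mir-308. The paired hairpins mir-281-1 and mir-281-2, in Oda, the ornithine decarboxylase antizyme gene, had a peak on either side, of 127 and 111. Between mir-277, which acts on branched-chain amino acid breakdown, and mir-34, known for its part in brain ageing, a shared peak of 73.6 lay in their common host lncRNA:CR43459, and mir-277 had a stronger one of 90.3 upstream. The signal was 120 at mir-980, 114 at mir-375 and 96.5 at mir-275 and mir-305. It was 114 and 89.4 at mir-2496, 103 at mir-4975, 94.5 at mir-1012, 87.1 at mir-4985, 78.8 at mir-9373 and 75.5 at mir-4967. Weak secondary summits stood beside a stronger one at mir-14 (29.6), mir-92a (17.3), mir-ban (13.9) and mir-10 (4.21). Each overlapped its stronger neighbour, so no separate replicate values are given for them.

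By function, summits within 2 kb were found at 3 of 4 hairpins of the Hox complexes, 7 of 14 growth and cell death hairpins, 3 of 12 hairpins known from the nervous system and sense organs and 1 of 14 mirtrons. None was found at the 8 hairpins of the early zygotic cluster, which clears maternal messages, at the 2 muscle hairpins, at the 3 of the let-7 timing cluster or at the 18 of testis-enriched clusters. The share over all hairpins was 13.1%, and these lists are small. Of the 3 Hox hairpins, mir-iab-4 and mir-iab-8 shared 1 peak, and 3 of the 7 growth and cell death hairpins were in 1 cluster. The 8 early zygotic hairpins formed 1 locus, as did the 3 of the timing cluster, and the 18 testis-enriched ones lay in a few loci. The lists without a summit thus rest on few separate positions. These counts changed with the window and the peak set. In replicate 2's own set alone, 1 Hox, 5 growth and cell death and 2 nervous system hairpins had a summit within 2 kb. Within 1000 bp in the conservative set there were 0 Hox, 3 growth and cell death and 2 nervous system hairpins, and within 500 bp 0, 0 and 2.

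Of the 12 nervous system hairpins, 9 had no conservative summit near the hairpin. The 3 nervous system genes with one were mir-279, mir-1000 and mir-34. Closest of the 9 others to a summit were mir-996 (2746 bp), mir-276b (3363 bp) and mir-276a (3547 bp). The nearest summit was 4324 bp from mir-9a, which acts with Senseless in sense organ precursors, 16720 bp from mir-124, which is enriched in neurons, and 59593 bp from mir-7, which acts in photoreceptors. Gaps were 29730 bp at mir-137, 17458 bp at mir-263a (mir-bft in the annotation) and 16138 bp at mir-263b, a pair that protects sense organs from cell death. The muscle genes mir-1 and mir-133 were 7188 and 28859 bp from a summit, and mir-let7, mir-100 and mir-125 were 5171 to 6062 bp away. The hairpins of the early zygotic cluster were 28548 to 29538 bp from the nearest summit and those of the testis-enriched clusters 29246 to 95404 bp.

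In the pooled set, 11 further genes had a summit within 2 kb, with signals from 59.7 to 103. The strongest were mir-4968 at 103, mir-4978 at 89.9 and mir-4962 at 89.7, then mir-4974 at 75.6 and mir-317 at 72.3. At mir-124 the pooled signal was 72.2, at a summit 354 bp upstream of the hairpin, and neither replicate's own set had a summit within 2 kb. At mir-276a it was 70.7, and replicate 1's own set alone held a summit there, of 49.7. The rest were mir-4957 (68.3), mir-4946 (62.0), and mir-310 and mir-311, which shared 1 peak (59.7). Of the 34 conservative genes, 33 also had a pooled summit, and mir-4967 was the exception.

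The share of hairpins with a nearby summit was highest inside noncoding host genes. Of hairpins inside a noncoding gene on the same strand, 15 of 46 had a summit within 2 kb (32.6%, 19.5 to 48.0). Inside a protein-coding gene on the same strand there were 14 of 136 (10.3%, 5.74 to 16.7), between genes 4 of 51 (7.84%, 2.18 to 18.9), and where the only overlapping gene was on the other strand 1 of 27 (3.70%, 0.0937 to 19.0). Hairpins within 2 kb of an annotated TSS had a summit in 22 of 133 cases (16.5%) and others in 12 of 127 (9.45%). Genes with a symbol number up to 1000, or a name, had one in 25 of 135 cases (18.5%) and those with a higher number in 9 of 125 (7.20%). These splits overlap one another, clustered hairpins share peaks, and the part of each in the others was not tested. The peak shared by mir-iab-4 and mir-iab-8 counts in both host classes, because the annotation gives MSAmiP, the host of mir-iab-8, as protein-coding.

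**Figure D4:**
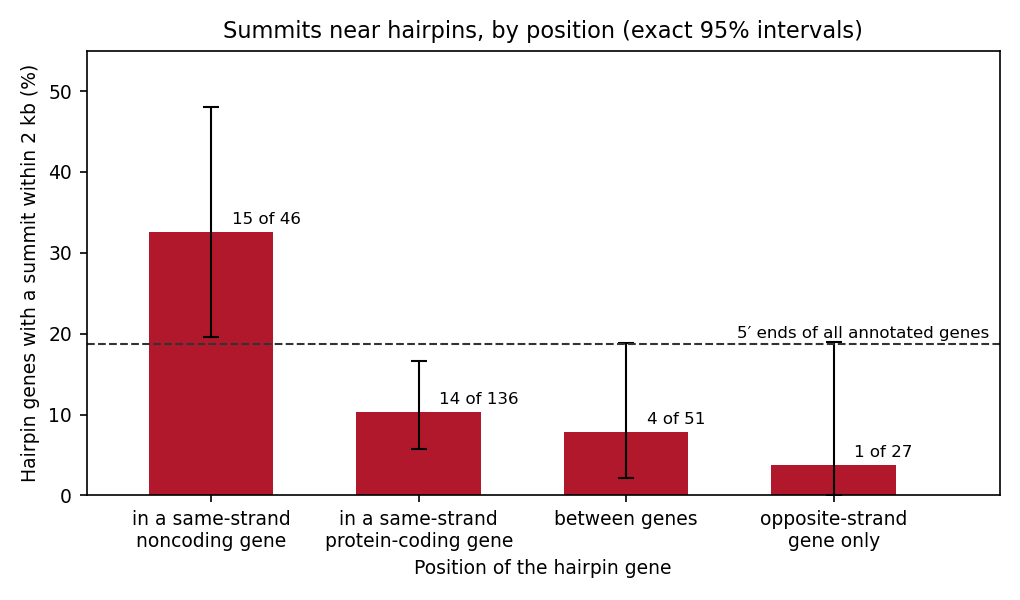
Percentage of hairpin genes with a conservative summit within 2 kb (bars from 0, with exact 95% intervals for counting error), by the position of the hairpin, and the share for 5′ ends of all annotated genes as a dashed line at 18.7%. Hairpins in same-strand noncoding genes stood at 32.6%, and the other 3 classes at 10.3% or less.

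By chromosome arm, a summit within 2 kb was found for 13 of 58 hairpins on 3R (22.4%), 9 of 55 on 2R (16.4%), 4 of 31 on 3L (12.9%), 5 of 56 on 2L (8.93%), 3 of 58 on X (5.17%) and 0 of 2 on chromosome 4. Measured from 5′ ends, which gave the same microRNA counts, the shares of all genes were 18.7% on 3R, 18.9% on 2R, 20.4% on 3L, 18.3% on 2L, 18.4% on X and 4.24% on chromosome 4. Numbers per arm are small, and differences between arms were not tested. The 18 testis-enriched hairpins without a summit lie on X and 2L.

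Host promoters gave a second view, since a hairpin's RNA can start far away. Any TSS of the host was counted, also one downstream of the hairpin, which cannot start the RNA that holds it. Of the 33 noncoding genes that hold a hairpin on their own strand, 11 had a conservative summit within 500 bp of a TSS (33.3%, 18.0 to 51.8), against 5.38% of noncoding RNA genes other than microRNA, tRNA and snoRNA genes. Both had a median of 1 TSS per gene, but some of these hosts had more, up to 4. The part of TSS number in the difference was not tested. Besides the hosts of mir-279, mir-1000, mir-282, mir-13a, mir-14 and mir-10, these were the hosts of mir-276b (signal 127), mir-315 (104), mir-276a (90.2), mir-263a (89.9) and mir-8 (77.1). Thus mir-276a, mir-276b and mir-263a, which had no conservative summit within 2 kb of the hairpin, lay in transcripts with a summit at their start.

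Of the 128 protein-coding hosts, 34 had a promoter summit (26.6%, 19.1 to 35.1), against 13.8% of all protein-coding genes. The hosts CG45092 and chk shared a peak, as did CG7029 and Usp12-46, and the interval counts each host apart. Whether host summits also lay near the TSS of a neighbouring gene is not given. The hosts had a median of 2 TSSs per gene and all protein-coding genes 1, and the part of this in the difference was not tested. The strongest was at Btk, a tyrosine kinase gene that holds mir-2b-1, at 555, with 257 in replicate 1 and 295 in replicate 2. That at spi, which encodes an EGF receptor ligand and holds mir-2a-1, mir-2a-2 and mir-2b-2, had 359, with 140 in replicate 1 and 221 in replicate 2. CG5953, which holds mir-4943, had 518, and for, a cGMP-dependent kinase gene that holds mir-4972, had 359. The summit in for was at a TSS downstream of mir-4972, so it was not at the start of an RNA with that hairpin. All 4 hosts had signals over 100 in both replicates.

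In all, 50 of 182 hairpins with a same-strand host had a summit at a promoter of the host (27.5%), and for 31 of them no summit lay within 2 kb of the hairpin. For mir-92a, mir-4972, mir-965, mir-4985, mir-281-1 and mir-281-2, the strongest such summit was at a TSS downstream of the hairpin. Such summits are kept in all counts of this paragraph, and no count from upstream TSSs alone was made. Counting either kind of summit, 65 of the 260 hairpins had one. A second window can only add to a count, and no like share over all genes is given for it. The 65 include 12 of the 14 growth and cell death hairpins and 7 of the 12 nervous system hairpins, but still none of the early zygotic, timing, muscle and testis-enriched ones. Among the 12, mir-2a-1, mir-2a-2 and mir-2b-2 share the spi summit, and mir-13b-1, mir-13a and mir-2c share a peak. Among the 7, mir-279 and mir-996 share a host summit, so both counts rest on fewer separate positions. In the noncoding hosts 9 hairpins had both kinds of summit, 6 a nearby one only and 5 a host promoter summit only. In the protein-coding hosts 10 hairpins had both, 4 a nearby summit only and 26 a host promoter summit only.

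Of the genes that make and use microRNAs, a promoter summit was found at 8 of 33 (24.2%, 11.1 to 42.3), against the 13.8% of all protein-coding genes, which lies inside the interval. None of the 6 processing genes, drosha, pasha, Ranbp21, Dcr-1, loqs and Ars2, had one. Among 8 Argonaute and silencing genes, AGO1 had a signal of 175, with 111 in replicate 1 and 58.1 in replicate 2, and r2d2, a partner of Dicer-2, had 140. Of 5 chaperone genes for Argonaute loading, Hsp83 had 283 and Hsc70-4 had 122.

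Among 14 decay and repression genes, the poly(A) nuclease subunit gene PAN3 had the strongest peak of the pathway, at 592 (rank 78), with 297 in replicate 1 and 286 in replicate 2. The others were tral, which encodes a translational repressor, at 212, the deadenylase gene Pop2 at 113 and the decapping enzyme gene DCP2 at 95.1. All 8 summits lay upstream of a TSS, at offsets of -79 to -211 bp. Those at AGO1, r2d2, Hsc70-4, Pop2, tral and DCP2 were also within 500 bp of the TSS of another gene, so they cannot be assigned to 1 gene, and only those at PAN3 and Hsp83 had no such neighbour.

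Replicate 1 gave more of the peaks near hairpins and higher signals at most of them, as it did for conservative peaks in general. Of the 37 peaks, 31 were in replicate 1's own set and 20 in replicate 2's, where 73.6% and 59.7% of all conservative peaks were found. Both own sets held 18 (48.6%, against 49.8% of all conservative peaks) and neither held 4. Peaks were matched to these sets by overlap, so the 4 weak secondary summits could be counted through the peak of their stronger neighbour. For the 33 peaks with a replicate summit within 150 bp in each replicate, the signal was higher in replicate 1 at 25 and lower at 8, and it was higher in replicate 1 at 65.2% of all conservative peaks with an overlapping peak in each replicate. The median log2 ratio of replicate 1 over replicate 2 was 0.49 (range -0.83 to 1.98), against 0.21 over all conservative peaks matched in both replicates, where the quartiles were -0.14 and 0.62. The lowest ratio was at mir-2496 and the highest at mir-14. With 2 replicates of 1 group, this spread between replicates has no test.

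Base composition moved with that ratio. Within 50 bp of the summit, the median GC content was 42.6% for peaks near hairpins and 35.6% for all conservative peaks. Across 4074 peaks, which share the 2 libraries, GC content and the log2 ratio had a Spearman correlation of 0.46 and a Pearson correlation of 0.47. The 1377 conservative peaks with a GC content of at least the hairpin peaks' median had a median ratio of 0.62. The part of base composition in the hairpin peaks' ratio was not tested.

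**Figure D5:**
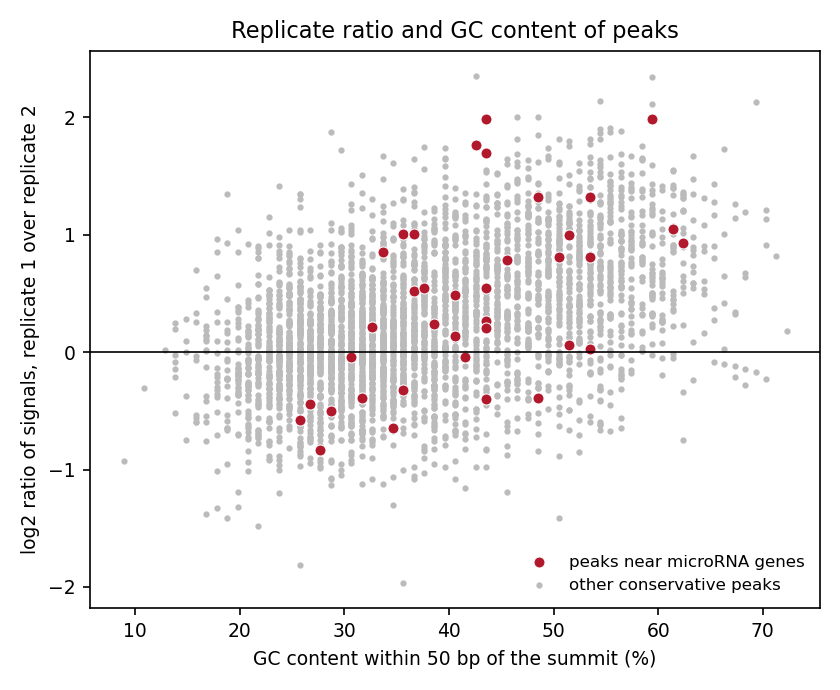
Log2 ratio of signals, replicate 1 over replicate 2 (vertical axis), against the GC content within 50 bp of the summit (%, horizontal axis), with red points for the 37 peaks near microRNA genes and grey points for other conservative peaks. Weak secondary summits carry the replicate values of the peak they overlap. Both sets of points are higher at higher GC content, and the red points reach from -0.83 to 1.98.

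Windows of 50 bp either side of the 37 summits near hairpins were searched on both strands for 5 short words, as were those of all 4099 summits. GAGAGA, which the Trithorax-like protein binds and whose repeats overlap one another, was in 4 of the 37 (10.8%, against 7.42% of all). A core promoter word, TATAAA, was in 7 (18.9%, against 18.2%). Of the E box words, CAGGTG was in 2 (5.41%, against 2.44%). The other, CAGCTG, was in 1 (2.70%, against 3.73%). The homeodomain word TAATTA was in 2 (5.41%, against 8.20%). With 37 windows, each of these shares rests on a few summits, and a match describes letters only.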

How the data were processed

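ChIP-seq peak lists on dm6 were used as deposited. The authors deposited ranked and thresholded lists for each replicate, for pooled replicates and for a conservative set, made with a control alignment, per the file headers. The deposited signal is the peak caller's value. The deposited score, at least 830 in these sets, rises as the irreproducible discovery rate (IDR) falls, and the deposited ranked lists give the IDR as −log10, with thresholded peaks at an IDR up to 0.01. The 8 remaining columns of the ranked lists were left unused. The aligner, the caller and their versions are not given in the sources used here, read depth is unknown, and the control library was not analysed here.

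Summits were set against hairpin genes of Ensembl BDGP6.54 (release 115), counted from 1, and hosts and TSSs came from the same annotation. A promoter summit lay within 500 bp of any TSS. Replicate signals are those of the strongest overlapping peak (1 bp or more) in each replicate's own ranked list. All 260 hairpins had the same coordinates in RefSeq, which gave 481 mature products with 426 distinct seeds, 33 of them shared by 2 or more genes. Loci given in full are the 15 with the highest signals and mir-955, added after its values were seen, with the rest in brief. Members, groups and pathway genes were chosen with earlier results of these data known. Counts are given with exact 95% intervals and no test. The measurement from 5′ ends and the GC description were added after seeing the data. Assignment was tested on simulated summits. Tools were matplotlib 3.10.9, scipy 1.17.1, pandas 2.3.3, numpy 2.4.6 and Python 3.11.15.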

Additional observations from a re-analysis of the deposited data

How the results depend on the processing

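The main counts were 34 hairpins and 29 loci. They kept within 1.5 times in the pooled set (44 and 37), when any base of the peak counted (36 and 31), with 113 ranked peaks absent from the conservative set put back (35 and 30) and, chosen after seeing the data, from hairpin 5′ ends (34 hairpins). From a single replicate's own set, hairpins ranged from 19 to 36 and loci from 16 to 30, the lower values being without replicate 1. The share of all genes fell likewise, with 7.31% of hairpins and 18.9% of all genes without replicate 1. A window of 500 bp gave 8 hairpins and 7 loci, 1000 bp 17 and 15, and 5000 bp 68 and 59. An IDR of 0.001 left 18 and 15. Within 500 bp the count of 8 became 13 in the pooled set and 4 to 8 in single replicates. The median signal of 119.8 was 102.6 in the pooled set, 68.5 to 77.3 in single replicates, whose lists have their own scale, 253.8 within 500 bp and 109.8 within 1000 bp. The median log2 ratio stayed at 0.49 with summits matched within 150 bp, and pathway genes with a promoter summit numbered 8 to 10. Fewer peaks or a narrower window lower such counts by construction, and other causes were not tested. No paired analysis was possible because the labels give 1 group only. Unknown read depth limits what a missing peak can show.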
